A study of Arabidopsis thaliana with 8 samples.

Results

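Roots of the Arabidopsis thaliana mutant per1 were compared with roots of the wild type Col-0 after both had been moved to medium without phosphate (Pi-free). The arrays were chosen by their labels, which gave 2 Col-0 and 2 per1 arrays in Pi-free medium, 4 of the 8 arrays of the study. All plants had grown on agar with control medium for 10 days before the transfer, and the Pi-free groups then spent 10 h without Pi. The 4 other arrays held Col-0 and per1 roots moved to fresh control medium for the same 10 h, and they serve here to place the genes of the Pi-free comparison and, in the fit over all 8 arrays, to estimate the spread behind its p-values. Both genotypes are of the ecotype Col-0 per the labels. The labels describe neither the per1 lesion nor how many plants went into an array, and beyond the words "biological" and "rep" nothing describes the replicates, so p-values measure the spread between these arrays. Every array was an Affymetrix ATH1 chip, on which 22746 probesets remained after the controls were left out, and 13436 of them could be named by 1 current locus.

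Phosphate is taken up by the root from soil in which it moves little, and one response of Arabidopsis to its shortage is to make root hairs longer and denser. A root hair is the tubular outgrowth of a single epidermal cell, and its tip growth needs proteins that loosen and rebuild the wall: expansins, xyloglucan endotransglucosylase/hydrolases (XTH), extensins and class III peroxidases. The literature describes per1 as a mutant whose root hairs fail to lengthen when Pi is withheld, and places the mutation in UBP14, which encodes a ubiquitin-specific protease that takes apart free chains of ubiquitin. UBP14 has no named probeset here and was not analysed here.

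The 4 Pi-free arrays were alike in their overall signal. Their medians lay between 193.1 and 196.6, and between 14.2% and 15.8% of their probesets had a signal of 16 or less. Signal is the linear probeset intensity as deposited, and the Spearman correlation between replicates was 0.975 for Col-0 and 0.982 for per1. PYK10, an abundant beta-glucosidase of root endoplasmic reticulum bodies (BGLU23), had signals of 20940.6 to 22241.3 on these arrays. The 25S ribosomal RNA control read 51.8 and 143.4 in Col-0 and 88.4 and 241.8 in per1, with the second replicate the higher in each genotype. The 5S control read 159.0 and 211.3 in Col-0 and 439.5 and 460.8 in per1, so the groups did not overlap, and its part in the results was not tested. The ratio of 3' to 5' control signal, a check of RNA integrity, was 4.07 and 5.49 in Col-0 and 4.58 and 4.21 in per1 for actin. For GAPDH it was 1.51 and 1.61 against 1.44 and 1.22. The part of RNA integrity in the results was not tested. Free-text descriptions of the samples speak of iron media and do not follow the Pi titles. The 6 named members of the iron list had a median genotype difference of 0.02. Both genotypes shared the medium, so that value cannot show which nutrient was withheld.

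Few probesets passed the test, and the ones that did were a dehydrin gene that was lower in per1, a lignin-related beta-glucosidase and the starch regulator QQS that were higher, and 4 probesets without a gene name. Differences are given as per1 minus Col-0 on the scale log2(signal + 16), which understates the change of low signals. They were tested with limma over all 8 arrays and called at a Benjamini-Hochberg adjusted p under 0.05. Of 22746 probesets 7 were called (0.0308%), 3 higher (0.0132%) and 4 lower (0.0176%) in per1. At an unadjusted p under 0.05 there were 2431 (10.7%), 1216 higher (5.35%) and 1215 lower (5.34%). Fewer cells of a type in the root and less RNA per cell cannot be told apart in such bulk samples.

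AT4G38410 on chromosome 4 encodes a protein of the dehydrin family, hydrophilic proteins that accumulate when cells lose water. Its signal was 1856.4 and 2484.5 on the Pi-free Col-0 arrays and 646.4 and 769.3 on the Pi-free per1 arrays. Both per1 values lay below both Col-0 values, and the Col-0 mean was 3.07 times that of per1. The difference was -1.59 ± 0.16 (SE, n = 2 arrays per group), with an adjusted p of 0.047 in limma. In control medium the same probeset read 421.4 and 362.5 in Col-0 and 579.3 and 620.2 in per1, a difference of 0.60 (limma adjusted p = 0.27). The order of the genotypes was therefore opposite in the 2 media, and the difference between the differences was -2.18 ± 0.22 (interaction term in limma, adjusted p = 0.03). The Col-0 mean in Pi-free medium stood 2.41 above that in control medium on the log2 scale and the per1 mean 0.23 above. Both of these share arrays with the genotype comparison. One more probeset, 267083_at, passed the interaction test, 2 of 22746 in all (0.00879%). It was picked out after its values were seen, and its genotype difference was -0.45 without Pi (limma adjusted p = 0.29) and 2.21 with it.

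BGLU46 on chromosome 1 encodes a beta-glucosidase that releases monolignols, the building units of lignin, from their glucosides. It read 230.8 and 209.3 in Pi-free Col-0 and 574.9 and 542.6 in Pi-free per1. The per1 arrays stood 2.54 times higher in their mean without overlap, and the difference was 1.28 ± 0.14 (limma adjusted p = 0.049). On the control-medium arrays the values were nearly the same, 220.4 and 255.3 in Col-0 and 537.3 and 522.5 in per1, with a difference of 1.11 that was also called (limma adjusted p = 0.032).

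QQS on chromosome 3, an orphan gene known for its effect on starch content in Arabidopsis, read 1.9 and 16.5 in Pi-free Col-0 and 175.0 and 156.5 in Pi-free per1. The Col-0 values lay within the range of bacterial control probesets, of which the highest on the 4 Pi-free arrays read 27.9 to 43.4, so no linear fold is given. The difference was 2.91 ± 0.36 (limma adjusted p = 0.049). In control medium QQS read 6.7 and 17.7 in Col-0 and 103.4 and 122.0 in per1, the same order, with a difference of 2.21 (limma adjusted p = 0.086).

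The 4 called probesets without a single gene kept the order of the genotypes in both media. Probeset 263319_at read 528.0 and 487.9 in Col-0 and 1102.8 and 966.7 in per1, a difference of 1.0 ± 0.11. Probeset 246330_at read 884.8 and 937.8 against 408.5 and 442.0 (-1.07 ± 0.13). Both had non-overlapping groups, and so had 265777_at (-0.84 ± 0.10) and 261530_at (-1.02 ± 0.13). Each of these 4 had a limma adjusted p of 0.049. Their differences in control medium were 1.03, -1.39, -0.63 and -1.05, and each kept its sign.

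**Figure D1:**
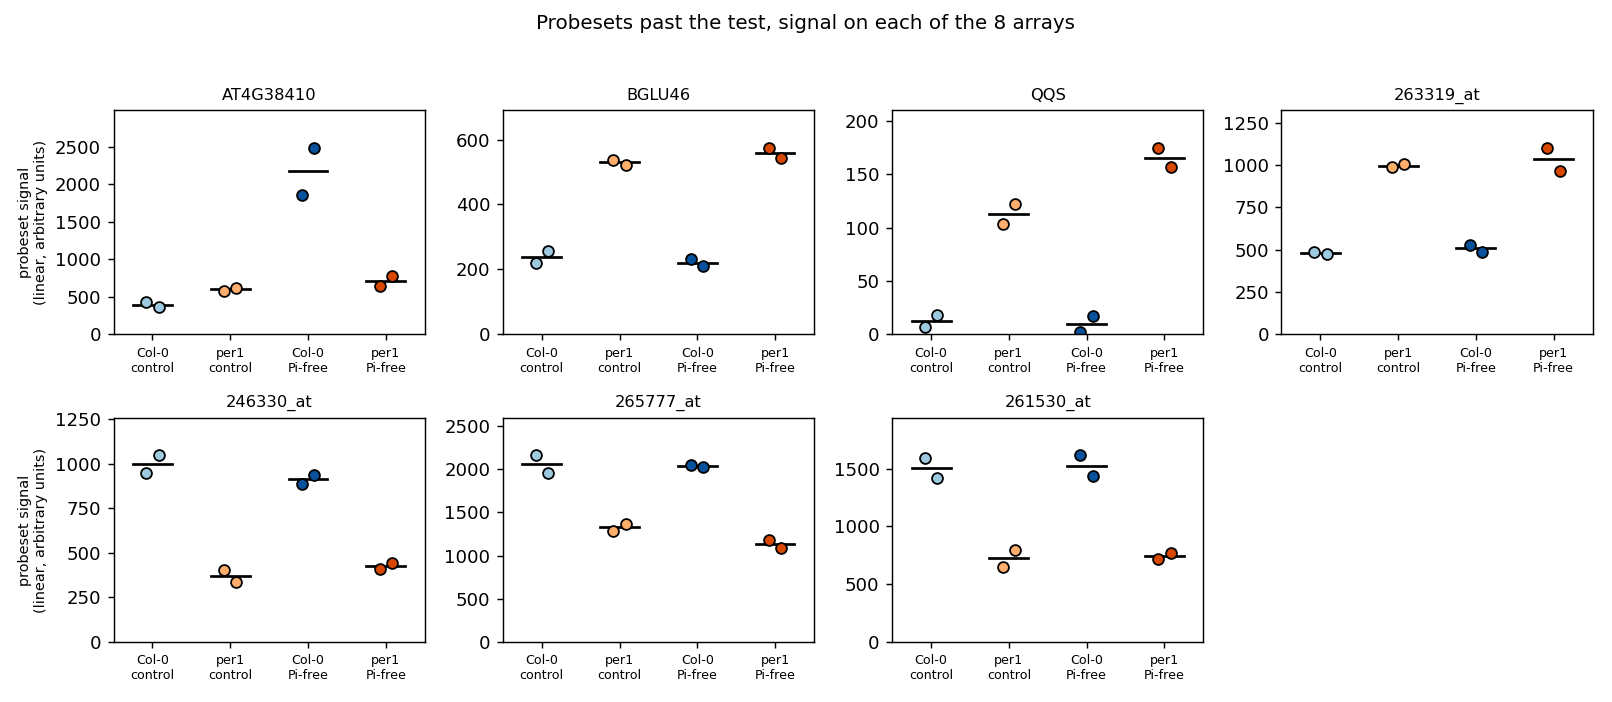
Linear probeset signal on each of the 8 arrays for the 7 called probesets, 1 panel each. Points are arrays and bars are group means (2 arrays). In AT4G38410 the Pi-free Col-0 arrays, at 1856.4 and 2484.5, stand above the other 6, whereas in the 6 other panels the genotypes keep their order in both media.

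These calls sat at the edge of what the design resolves. Adding the replicate number to the fit raised the count of calls, as given in the last section. With any 1 of the 8 arrays left out, limma called 0 probesets, against 1580 to 3620 at an unadjusted p under 0.05; with the 4 Pi-free arrays fitted alone it called 0 (2121 unadjusted), and with the dimmer probesets left out before the test it called 63.

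Beyond the calls, 24 genes were named by rule: the 12 with the smallest p in each direction among probesets with 1 gene, non-overlapping Pi-free arrays and a signal above the median of all probesets. Non-overlap by itself was common, at 20.5% of all probesets in the higher and 19.8% in the lower direction. BGLU46 and AT4G38410 are among the 24, and none of the 22 others passed the test. With the replicate number added to the fit 13 of the 24 passed, though the labels give no pairing. Several roles below are background knowledge of the loci and not taken from the annotation table.

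The 12 genes with per1 above Col-0 had estimates from 0.55 to 1.52. OSM34, an osmotin of the thaumatin-like family, read 956.5 and 1364.7 in Col-0 and 2282.1 and 2550.1 in per1 (1.07 ± 0.16, limma adjusted p = 0.086). AT4G33720, a secreted protein of the CAP family to which PR1 belongs, read 2069.6 and 1722.0 against 5632.5 and 5240.2, with an estimate of 1.52 ± 0.28 (limma adjusted p = 0.12). AT4G16260, a glycosyl hydrolase of the beta-1,3-glucanase family, gave the smallest estimate of the 12, 0.55 ± 0.09, from 2133.6 and 2192.4 against 3213.7 and 3135.6. PDF1.2, a plant defensin and the other named member of the defence list, read 120.5 and 85.2 against 150.9 and 107.4, with overlapping groups. AT1G12010, which encodes an enzyme of the last step of ethylene synthesis (ACC oxidase), read 254.9 and 267.3 in Col-0 and 476.5 and 528.7 in per1 (0.90). The estimates were 0.69 for AT3G25610, a lipid-flipping P4-type ATPase, 0.77 for AT1G20380, a prolyl oligopeptidase, and 1.05 for AT4G40080, an ENTH-domain protein of the kind that acts in clathrin coats. AT5G26270, AT1G64610, AT1G67340 and AT3G43740 completed the set with 1.05, 1.14, 0.77 and 0.68. Adjusted p over the 12 ran from 0.049 to 0.12 in limma.

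The 12 genes with per1 below Col-0 had estimates from -1.86 to -0.69. AT1G09750, an aspartyl protease, read 694.0 and 537.7 in Col-0 and 225.4 and 287.0 in per1 (-1.21 ± 0.17, limma adjusted p = 0.062). AT4G08410, an extensin, read 2559.1 and 2906.7 against 1241.9 and 1503.4, and EXPA18, an expansin of root hair cells, read 1314.5 and 1369.8 against 869.6 and 765.2. The groups did not overlap in AT4G08410 and EXPA18, which the rule required of every gene in the set. Their estimates were -0.99 ± 0.14 and -0.71 ± 0.11, with limma adjusted p of 0.071 and 0.087. The set also held scpl26, a serine carboxypeptidase-like protein (-0.69), AT4G25790, another CAP protein (-0.77), AT3G53980, a lipid transfer-like protein (-0.79), AT1G25275 (-0.72) and AT2G41650 (-0.93). AT1G13750, a purple acid phosphatase and so a member of the family that frees Pi from organic esters, read 574.6 and 589.1 against 308.2 and 372.2 (-0.75 ± 0.14).

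Of these 12 genes 9 had their highest group mean in Pi-free Col-0. The rule took genes with Pi-free Col-0 above Pi-free per1, so the choice itself favours that count. Among the 9, the Col-0 mean in Pi-free medium stood furthest above that in control medium for AT4G38410, AT1G05340 and AT1G69840. The rises were 2.41, 1.54 and 1.19 on the log2 scale, values that share arrays with the genotype comparison. AT1G05340, a small cysteine-rich protein, read 705.0 and 1448.6 in Pi-free Col-0 and 213.5 and 334.3 in Pi-free per1, with 294.7 and 383.4 in control Col-0 and 180.8 and 243.7 in control per1. The estimate was -1.86 ± 0.32 (limma adjusted p = 0.12), and it ran from -2.37 to -1.35 as single arrays were left out. AT1G69840, of the SPFH family of membrane scaffold proteins, read 439.0 and 532.1 against 223.5 and 229.5 in Pi-free medium and 177.6 and 232.2 against 185.2 and 213.8 in control medium. Its 2 genotypes thus overlapped with Pi and separated without it, the latter as the rule required. The interaction terms were -1.22 and -1.01, with limma adjusted p of 0.92 and 0.91, and neither passed.

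**Figure D2:**
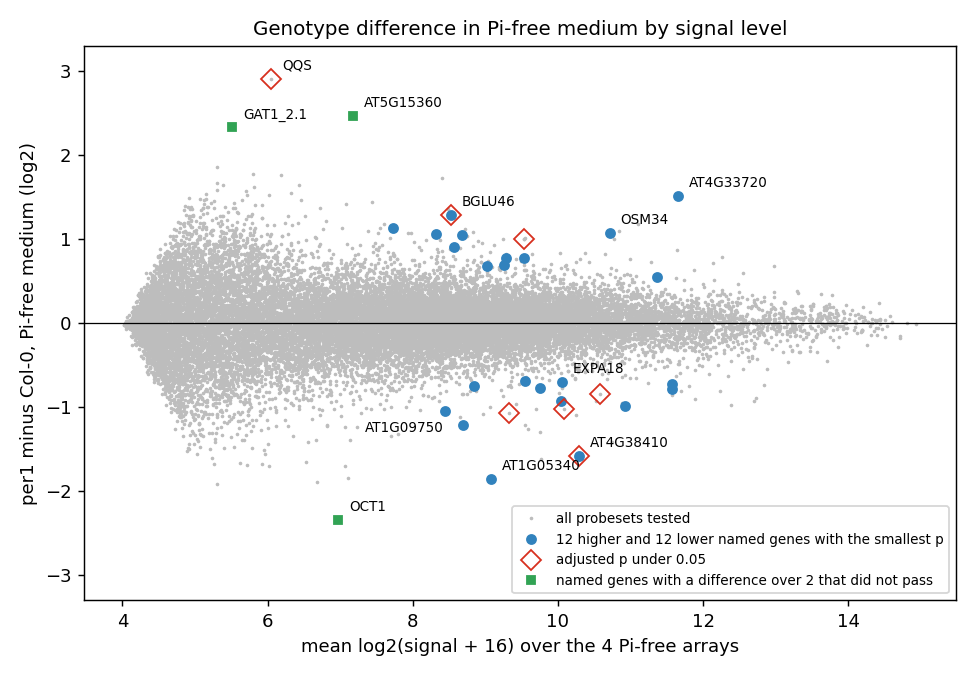
Difference per1 minus Col-0 in Pi-free medium (log2) against the mean log2(signal + 16) of the 4 Pi-free arrays, 1 point per probeset. Diamonds mark the 7 called probesets, filled circles the 24 genes named by rule and squares 3 named genes with a difference over 2 that did not pass. The called differences run from -1.59 to 2.91, and the spread of all points widens towards low signals.

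The control-medium arrays carry the same genotype contrast on other samples. Their signals do not enter the Pi-free estimates, but they share the variance behind the p-values, so sets chosen by p in Pi-free medium are not independent of them. Of the 7 called probesets 6 had the same sign in control medium and 4 were called there too, where 13 were called in all (0.0572%). Of the 24 rule-named genes 22 had the same sign, 11 of 12 in each direction, and 18 of these also had an unadjusted p under 0.05 in control medium, as did 10.3% of all probesets in either direction. Over all 22746 probesets 58.1% had the same sign in both media and 7.61% had it with an unadjusted p under 0.05. Of the 135 probesets with an unadjusted p under 0.001 in Pi-free medium, 89.6% and 68.9% did. Across the 11373 brighter probesets the 2 differences had a Pearson correlation of 0.44 and a Spearman correlation of 0.36, given as a description, since probesets are not independent and all were fitted with variances shared between the media.

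The interaction passed for AT4G38410 alone among the 24, and 10 of them had it at an unadjusted p under 0.05. For AT4G33720 the estimates were 1.52 without Pi and 1.66 with it, and for AT1G64610 1.14 and 1.11. AT2G41650 and AT1G09750 had their larger difference in control medium, -1.33 and -1.60 against -0.93 and -1.21, and both were called there (limma adjusted p = 0.026 and 0.019). The estimate of EXPA18 was -0.71 without and -0.23 with Pi, and that of AT1G20380 was 0.77 and 0.14. The exceptions in sign were AT4G38410 and AT3G43740, a leucine-rich repeat protein that read 421.5 and 371.1 in Col-0 against 637.7 and 651.4 in per1 without Pi and 672.2 and 655.4 against 447.2 and 428.8 with it. Its groups were apart in opposite directions, and its interaction of 1.27 did not pass (limma adjusted p = 0.18).

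**Figure D3:**
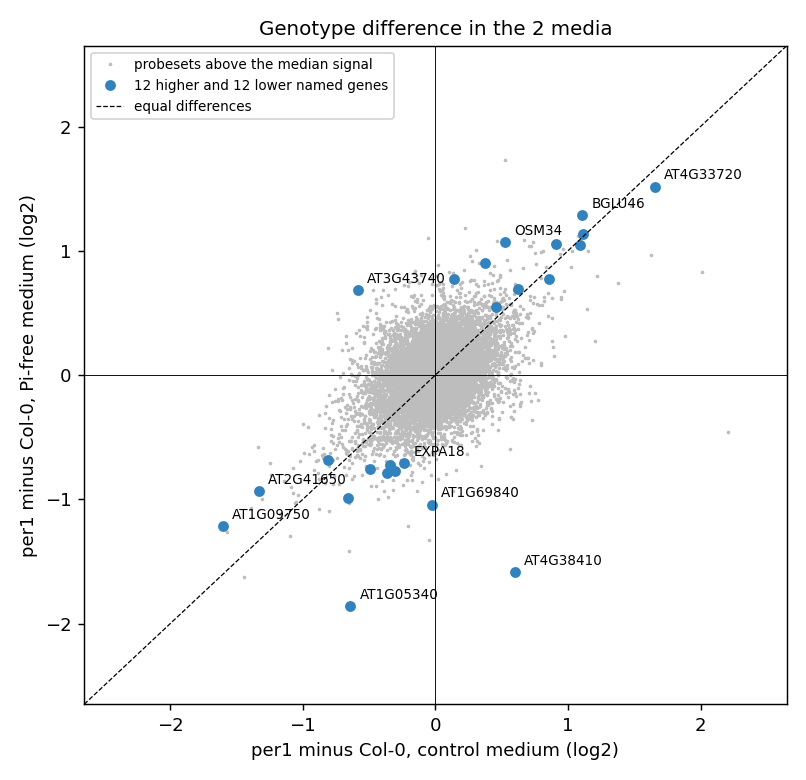
Difference per1 minus Col-0 (log2) in Pi-free medium against the same difference in control medium, for the 11373 probesets above the median signal. Filled circles are the 24 genes named by rule, and the dashed line marks equal differences. Of the 24, 22 lie in the quadrants of equal sign, and AT4G38410 and AT3G43740 do not.

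The named genes of root hair growth all read below Col-0, without passing the test. Of 25 listed genes 4 were named on the array, and limma called 0. An unadjusted p under 0.05 was reached by 3, all lower, beside 5.34% of all probesets. All 4 estimates were below 0 and all 4 had per1 arrays below both Col-0 arrays, beside 49.5% and 19.8% of all probesets. Their median was -0.61, beside 0.003 over all probesets. XTH26, a wall-remodelling enzyme of root hair cells, read 260.0 and 234.0 in Col-0 and 86.3 and 36.0 in per1 (-1.85 ± 0.37, limma adjusted p = 0.14). The peroxidase PRX44 (AT4G26010), one of those that cross-link wall proteins in growing hairs, read 4414.2 and 4002.5 against 2907.7 and 2948.7 (-0.52 ± 0.13, limma adjusted p = 0.24). EXPA7, the closest relative of EXPA18 in hair cells, read 602.4 and 789.4 against 551.0 and 562.8 (-0.30 ± 0.15, limma adjusted p = 0.52). In control medium the median of the 4 was -0.11, since PRX44 and EXPA7 had estimates of 0.02 each there. XTH26 stood at 204.4 and 105.6 against 66.2 and 50.8 with Pi, so its order was the same in both media. Their summed signal in Pi-free medium was 6591.1 and 6395.7 in Col-0 and 4414.6 and 4312.7 in per1, and in control medium 7264.0 and 6024.6 against 5934.0 and 6923.7. The Pi-free sums did not overlap and the control sums did, but PRX44 alone made up most of each sum. EXPA18 and XTH26 had both per1 arrays below both Col-0 arrays in control medium too. Interaction estimates for the 4 ran from -0.71 to -0.32, and none passed. Of the factors that set hair cell fate and growth 2 were named, RSL3 at 3.0 and 3.2 against 33.9 and 10.4, near the range of the bacterial controls, and TRY at 74.2 and 30.5 against 64.2 and 47.1.

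Extensins are hydroxyproline-rich glycoproteins that form the protein scaffold of the wall, and 12 of 20 listed were named. Limma called 0. At an unadjusted p under 0.05 there were 1 higher and 5 lower, beside 5.35% and 5.34% of all probesets. Of the 12, 8 had estimates below 0, beside 49.5% of all probesets. Their median over the 12 was -0.53, with -0.45 in control medium. The median was -0.85 without the first and -0.28 without the second Col-0 Pi-free array. HRGP1 read 7565.7 and 11663.8 in Col-0 and 5019.2 and 6334.4 in per1 (-0.73 ± 0.19, limma adjusted p = 0.24), and AT5G06630 read 5486.9 and 10130.0 against 3387.3 and 4198.2 (-0.98 ± 0.28, limma adjusted p = 0.27). The groups were apart in both, as were 19.8% of all probesets in that direction, though the Col-0 replicates were far from each other. Of the probesets given here, those of AT4G08410, HRGP1 and AT5G06630 are of a type that can detect transcripts of related genes. AT1G26250 went the other way, at 1147.0 and 1341.4 in Col-0 against 2380.0 and 3008.8 in per1 (1.10 ± 0.24, limma adjusted p = 0.18). Its control-medium groups overlapped, at 1964.7 and 2494.5 against 2852.5 and 1586.4.

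**Figure D4:**
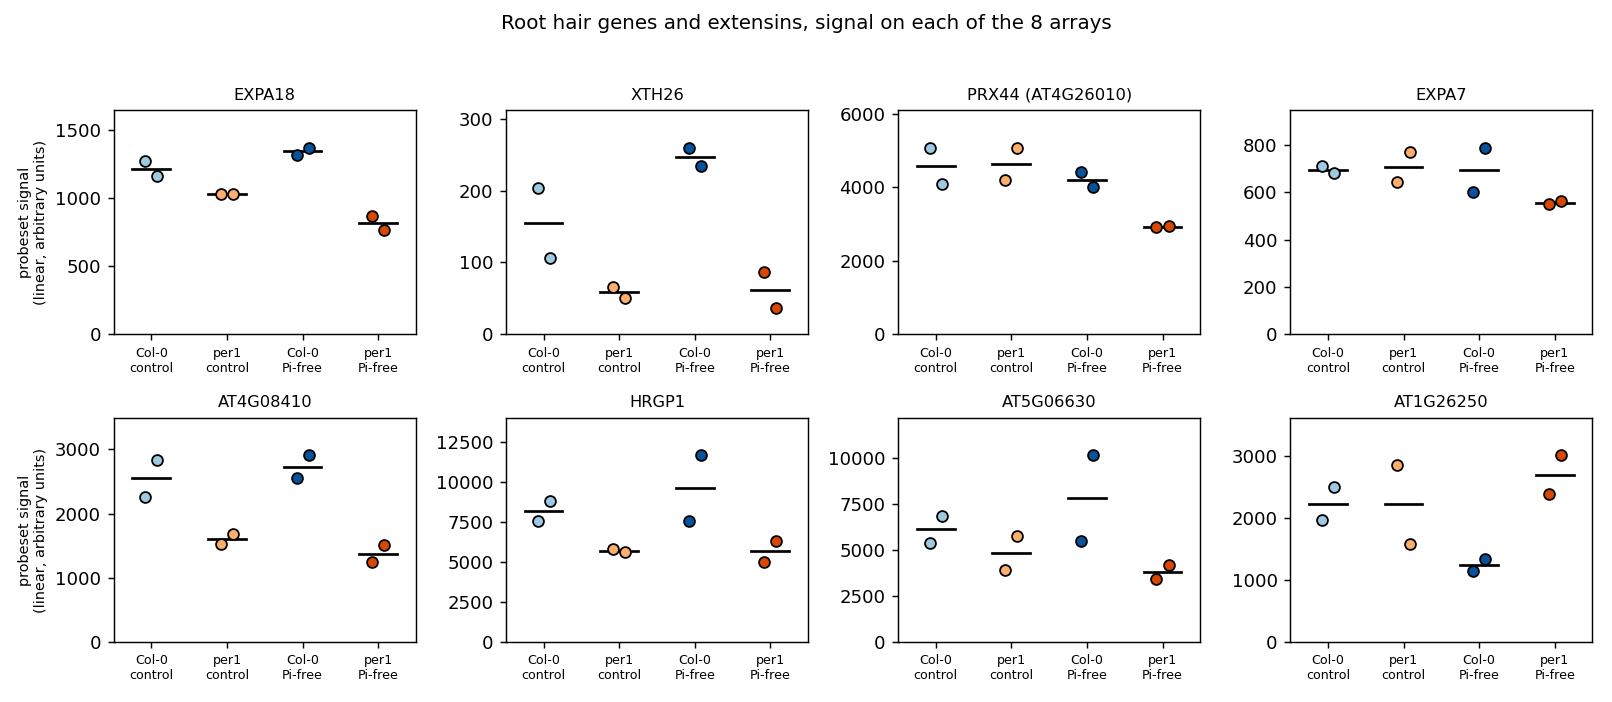
Linear probeset signal on each of the 8 arrays for 4 root hair genes (upper panels) and 4 extensins (lower panels). Points are arrays and bars are group means (2 arrays). Pi-free per1 lies below Pi-free Col-0 in 7 panels, and in AT1G26250 it lies above, at 2380.0 and 3008.8 against 1147.0 and 1341.4.

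Other wall families were split. Of 55 named class III peroxidases limma called 0. At an unadjusted p under 0.05 there were 5 higher and 7 lower, beside 5.35% and 5.34% of all probesets. Of the 55, 33 had estimates above 0 and 22 below, beside 50.5% and 49.5% of all probesets, and the median was 0.08. Among them AT5G19890 read 572.0 and 453.2 in Col-0 and 995.2 and 1073.1 in per1 (1.0 ± 0.21, limma adjusted p = 0.16), and AT3G49960 read 2330.5 and 2341.0 against 1677.4 and 1335.7 (-0.64 ± 0.14, limma adjusted p = 0.18). Expansins had 9 of 18 estimates on each side of 0 and a median of -0.02. Besides EXPA18, the beta-expansin EXPB3 was apart in its arrays, at 2735.7 and 2679.9 against 1924.5 and 1844.1 (-0.52). The 9 named XTH genes had a median of -0.08 and the 15 endoglucanases of family GH9 one of -0.00. XTH32 read 788.0 and 727.1 against 514.2 and 547.0 (-0.50), and XTH16 read 224.3 and 231.5 against 305.6 and 283.8 (0.35), so members of 1 family lay on both sides. In the secondary wall and lignin list 3 of 17 were named and BGLU46 was called. BGLU45, its neighbour in the same enzyme group, read 18.9 and 12.8 against 45.9 and 29.2 (0.74), near the range of the bacterial controls. In control medium its groups overlapped, at 30.2 and 45.1 against 13.1 and 33.6 (-0.48). PRX72 (AT5G66390), a peroxidase of lignin formation, read 909.9 and 1273.1 against 1328.9 and 1509.4 (0.39).

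No named gene of Pi supply passed the test after 10 h. Of 30 listed genes of Pi starvation and transport 5 were named, and limma called 0. At an unadjusted p under 0.05 there were 2 lower, beside 5.34% of all probesets. Estimates were below 0 for 3 of the 5, beside 49.5% of all probesets, and the median was -0.31. The purple acid phosphatase AT1G13750 is described above. LPR1, a ferroxidase through which root tips stop growing at low Pi, read 403.8 and 336.9 in Col-0 and 333.9 and 260.9 in per1 (-0.31 ± 0.19), and its relative LPR2 read 258.2 and 328.8 against 317.1 and 318.2 (0.12 ± 0.17). SIZ1, a SUMO ligase that acts in Pi signalling, read 774.2 and 856.8 against 963.4 and 824.1, and VTC4, an inositol phosphatase that also serves ascorbate synthesis, read 1033.6 and 961.9 against 750.7 and 831.3. Only AT1G13750, VTC4 and LPR1 had both per1 arrays below both Col-0 arrays, beside 19.8% of all probesets. For LPR1 the nearest arrays of the genotypes read 336.9 and 333.9, and its difference in control medium was -0.57. The median without the second per1 Pi-free array was -0.14. The 2 other named purple acid phosphatases, PAP20 and AT1G25230, had estimates of 0.52 ± 0.44 and -0.16 ± 0.26.

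Of the ubiquitin pathway, 12 of 29 ubiquitin-specific proteases were named, UBP14 not among them. They gave 0 calls in limma. With an unadjusted p under 0.05, 1 was higher and 0 lower, beside 5.35% and 5.34% of all probesets. Estimates were above 0 for 8 and below for 4, beside 50.5% and 49.5% of all probesets. Both per1 arrays lay above both Col-0 arrays for 7 and below for 2, beside 20.5% and 19.8% of all probesets. The median of the 12 was 0.22, with 0.13 in control medium. UBP24 read 1230.3 and 1244.5 in Col-0 and 1464.3 and 1564.1 in per1 (0.29 ± 0.10, limma adjusted p = 0.36), and UBP27 read 304.3 and 305.4 against 364.3 and 419.8 (0.34 ± 0.16). These proteases cut ubiquitin from proteins or from chains. The 12 named ubiquitin-conjugating enzymes had a median of -0.03 and the 9 plant U-box ligases one of -0.12. Among the ligases PUB26 read 65.0 and 91.3 against 15.8 and 30.8 (-1.27 ± 0.31, limma adjusted p = 0.23). Its per1 values lay within the range of the bacterial controls. Genes of ubiquitin itself had 0 of 9 named members.

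In the list of osmotic, cold and abscisic acid response 4 of 15 genes were named and AT4G38410 was called. Of these 4, 3 had estimates below 0, beside 49.5% of all probesets, and the median was -0.32. The other dehydrins, LTI30 and COR47, read 5772.3 and 7329.1 against 5121.4 and 5477.8, and 9886.5 and 13317.3 against 8232.0 and 9895.5, with estimates of -0.30 ± 0.16 and -0.35 ± 0.20. COR15A, a chloroplast protein of cold acclimation, was at 3.5 and 7.1 against 13.4 and 18.0, within the range of the bacterial controls. COR27, a regulator of the clock and of freezing tolerance, belongs to the separate list of cold-regulated genes. It read 12.8 and 26.7 in Col-0, within the range of the bacterial controls, and 63.1 and 77.9 in per1 (1.30 ± 0.32, limma adjusted p = 0.23).

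Genes of green tissue read lower in per1 and plastid-encoded genes mostly read higher, none past the test. RCA, the Rubisco activase, read 307.1 and 276.5 in Col-0 and 164.9 and 185.7 in per1 (-0.69 ± 0.19, limma adjusted p = 0.26). Of 41 listed nuclear photosystem genes 8 were named, 7 had estimates below 0, 3 of them with an unadjusted p under 0.05, and the median was -0.51. Their summed signal was 1228.8 and 1185.1 in Pi-free Col-0 and 793.4 and 888.6 in Pi-free per1. It was 1193.9 and 1542.1 against 799.1 and 821.0 in control medium, so per1 arrays stood lower in both media. Of the 16 green shoot markers 2 were named, RCA and LHCB4.1, and none was at 0. The part of these differences in the results above was not tested. Of 85 listed plastid-encoded genes 69 were named, 52 of them with estimates above 0 and a median of 0.20, and at an unadjusted p under 0.05 there were 13 higher and 1 lower. Over all probesets 50.5% of estimates were above 0 and 49.5% below, and 5.35% and 5.34% had such a p in the higher and the lower direction. The ribosomal protein gene rpl33 read 1410.5 and 1003.8 against 2000.1 and 2240.9 (0.82 ± 0.16, limma adjusted p = 0.12), and atpH, an ATP synthase subunit, read 128.2 and 223.2 against 461.4 and 780.1 (1.73 ± 0.47, limma adjusted p = 0.26).

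The EARLI1-type lipid transfer proteins lie side by side on chromosome 4, and 3 of 9 were named. AT4G12500 read 1266.6 and 1807.3 in Col-0 and 428.3 and 538.0 in per1 (-1.62 ± 0.30, limma adjusted p = 0.12), and AT4G12490 read 2005.0 and 3400.3 against 1290.1 and 1396.4 (-0.95 ± 0.27, limma adjusted p = 0.27). In both genes the genotypes were apart in Pi-free medium, as were 19.8% of all probesets in the lower direction. They were apart in control medium as well, where the estimates were -1.45 and -1.08. The third, AT4G12530, was near the bacterial controls, at 24.4 or less on each Pi-free array.

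Among the enzyme families 20 of 40 beta-glucosidases were named, with 10 estimates on each side of 0. BGLU25 read 1923.0 and 2127.3 in Pi-free Col-0 and 1248.8 and 1421.4 in Pi-free per1 (-0.60 ± 0.11, limma adjusted p = 0.12), and 1021.5 and 1036.8 against 1440.5 and 1617.1 in control medium. Its groups were apart in opposite directions, and its interaction of -1.16 had a limma adjusted p of 0.18. Of 29 named serine carboxypeptidase-like genes 18 had estimates below 0, with a median of -0.08. In that family SCPL27 read 486.5 and 539.9 against 310.0 and 358.0 (-0.60 ± 0.14). SCPL32 read 131.6 and 167.3 against 32.3 and 65.2 (-1.39 ± 0.42), and its lower per1 value lay within the range of the bacterial controls. CAP proteins held both AT4G33720 and AT4G25790, and their 17 named members had a median of -0.03. Medians of the berberine-bridge-like oxidases (22 named), cytochrome P450 genes (26), UDP-glycosyltransferases (47), glutathione transferases (13), SWEET sugar transporters (15) and calmodulin-like proteins (7) were -0.15, -0.04, -0.09, -0.15, 0.07 and -0.35. Limma called 0 of these 130 genes, with 3 higher and 14 lower at an unadjusted p under 0.05, beside 5.35% and 5.34% of all probesets.

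**Figure D5:**
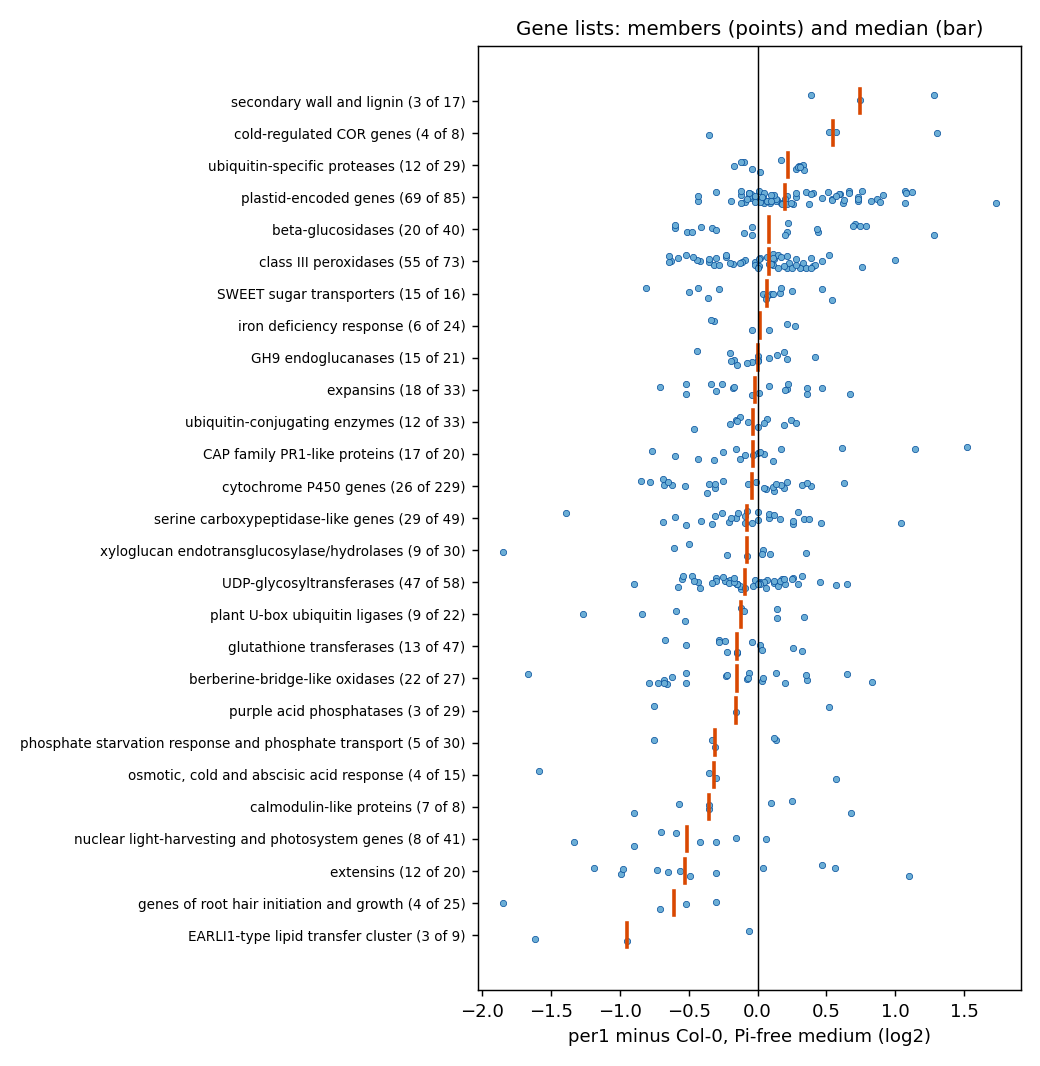
Difference per1 minus Col-0 in Pi-free medium (log2) for the members of 27 gene lists, with the named and listed numbers in brackets. Points are genes, short bars are list medians and the vertical line is the median of all probesets, 0.003. Medians run from -0.95 in the EARLI1-type cluster to 0.74 in the secondary wall and lignin list, and most lists straddle 0. That 0.74 is the estimate of BGLU45, which read near the bacterial controls.

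Among named genes 4 had a difference over 2 on the log2 scale, QQS and 3 that did not pass, all picked out after their values were seen. AT5G15360 read 66.0 and 30.2 in Pi-free Col-0 and 326.9 and 321.5 in Pi-free per1 (2.47 ± 0.33, limma adjusted p = 0.062), and 65.5 and 32.3 against 406.2 and 321.4 in control medium, where it was called (2.59, limma adjusted p = 0.032). GAT1_2.1, of the class I glutamine amidotransferases, read 3.6 and 5.2 against 135.1 and 53.5 without Pi and 48.2 and 40.2 against 12.2 and 6.9 with it. The order of its genotypes turned over between media, at signals partly within the range of the bacterial controls (2.33 ± 0.39, limma adjusted p = 0.12). OCT1, an organic cation transporter, read 188.7 and 376.7 against 8.5 and 111.0 (-2.35 ± 0.66, limma adjusted p = 0.27). Its per1 replicates were far apart, the lower within the range of the bacterial controls.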

How the data were processed

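RNA from roots was hybridised to 8 single-colour ATH1 arrays in 4 groups of 2. The deposited values were linear probeset signal intensities. The authors' summarisation software is not given in these labels or headers. A mean trimmed by 2% at each end came to 500.0 on all arrays, as values scaled before deposit do. Of 22810 probesets, 64 controls were left out. By the platform annotation 13513 probesets had 1 gene, 503 several and 8730 none. Of the first, 13436 matched a locus of TAIR10.1, whose chromosomes and symbols are used.

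Values were taken as log2(signal + 16) without further normalization for the fit (limma 3.58.1, R 4.3.3). All 8 arrays entered it with a mean for each group, which left 4 residual degrees of freedom. The moderated variance of a probeset followed the trend with signal and was shared by the 4 groups. Adjusted p is Benjamini-Hochberg over 22746 probesets. An exact two-sided permutation test of 2 against 2 arrays cannot go below 0.33, so none was used. On data simulated for the Pi-free genotype comparison over 22746 probesets, with 200 changed in each of 10 runs, the fit recovered 71.2% of changes of 1 and 99.3% of changes of 2 on the log2 scale, and 5.3% of calls were false. The changed probesets were drawn above the median signal. Noise was independent between arrays, with variances drawn from the fitted trend, and nothing else differed between groups. The rates hold for that setting and are not estimates for the real comparison, in which AT4G33720 at 1.52 did not pass.

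Named genes were the called probesets with 1 gene, the 12 higher and 12 lower described in the text, and up to 4 members with the smallest p of each list with at least 3 named members. List members named outside these were chosen after their values were seen. The brightest probeset stood for a locus. Genes and lists were chosen with earlier results of these data known, and some lists were filled once the annotation had been read; families went by gene symbol, since the annotation used holds no product names. Alternatives were other offsets, quantile normalization, no or robust variance trend, a low-signal filter, the Pi-free arrays alone, a replicate block and leaving out each array.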

Additional observations from a re-analysis of the deposited data

Results flagged for a closer look

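For 13 probesets named in the text the genotype difference is given again here, 2 because the interaction term passed in limma and 11 because the arrays of the genotypes lay apart in opposite directions in the 2 media. The interaction, Pi-free minus control-medium difference, passed for AT4G38410 (-2.18, adjusted p = 0.03) and for 267083_at (-2.66, adjusted p = 0.0029).

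In the 11 others the groups were apart in opposite directions, as in 4.95% of all probesets, and a difference between the media did not pass the test, with interaction adjusted p from 0.18 to 0.92 in limma. It was 3.57 for GAT1_2.1, 1.27 for AT3G43740, 1.02 for the endoglucanase gene GH9B13, 0.99 for the plastid gene rpl33, 0.61 for the glycosyltransferase gene UGT76B1 and 0.43 for UBP24. It was -1.68 for UGT85A5, -1.48 for the calmodulin-like gene CML37, -1.16 for BGLU25, -0.57 for the sugar transporter gene SWEET13 and -0.41 for the ubiquitin-conjugating enzyme gene UBC27. UGT85A5 and CML37 were at signals of 42.5 or less on each array, near the bacterial controls.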

How the results depend on the processing

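The count of called probesets depended on the processing. Against 7 in Pi-free medium, limma gave 16 with log2(signal + 1), 2 with log2(signal + 64), 6 with quantile normalization and 17 with robust variances. With the low-signal filter it gave 63 of 11373 tested, and 22 of the 24 rule-named genes passed. The 24 had been chosen by smallest p above the median signal, so that count follows in part from the choice. Limma gave 0 with no trend or with the 4 arrays alone (2112 and 2121 at an unadjusted p under 0.05). Against 13 in control medium it gave 20 with log2(signal + 1), 22 with robust variances, 54 with the filter, and 0 with no trend or its 4 arrays alone (2062 and 2333 unadjusted). Against 2 for the interaction it gave 1 with log2(signal + 64), 1 with quantile normalization and 0 with no trend (1196 unadjusted). The replicate numbers were not taken to pair the arrays, since the labels give no pairing. Deviations of same-numbered arrays correlated at 0.06 to 0.27 between groups. The 25S and 5S controls were higher in the second replicate of all 4 groups. Whether the replicates shared a batch was not tested. With the number as a replicate block, 48 were called in Pi-free medium, 42 in control medium and 2 for the interaction, and 13 of the 24 passed. Leaving out single arrays gave 0 in Pi-free medium (1580 to 3620 unadjusted), 1 to 14 in control medium and 0 to 2 for the interaction. An array left alone in its group was assumed to vary like the others.

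Of the list medians, secondary wall and lignin moved to 1.18 with log2(signal + 1) and 0.38 with log2(signal + 64), COR genes to 1.11 with log2(signal + 1), and with the filter cytochrome P450 genes to -0.16, glutathione transferases to -0.28 and U-box ligases to 0.14. With single arrays left out medians ran from -0.38 to -0.14 for phosphate genes, -0.18 to 0.07 for iron genes, 0.51 to 0.97 for secondary wall and lignin, -1.33 to -0.57 for the EARLI1-type cluster, -0.85 to -0.28 for extensins, -0.28 to 0.09 for XTH genes, -0.13 to 0.02 for cytochrome P450 genes, -0.29 to -0.03 for glutathione transferases and 0.12 to 0.22 for ubiquitin-specific proteases. Estimates that changed sign there were those of AT4G12530 (-0.56 to 0.43), AT1G25230 (-0.40 to 0.08), PUB15 (-1.73 to 0.05), GH9B8 (-0.39 to 0.01) and GH9B12 (-1.30 to 0.42). The cause was not tested, beyond fewer probesets or arrays in the fits built that way. Signals near the bacterial controls limit QQS, GAT1_2.1 and other dim probesets.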
